A study of Mus musculus with 32 samples.

Results

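Livers with intact Rps6, the gene for a protein of the small ribosomal subunit, taken 20 h after partial hepatectomy were compared with livers at 0 h. The samples were chosen by their titles, which give the time and the absence of the mx-cre transgene. They are 8 of the 32 arrays of the series, 4 at each time. All 8 came from male C57BL/6 mice, 3 months old and homozygous for a floxed Rps6 allele, so the 0 h livers carry the floxed allele too. These mice lack mx-cre and are called Cre minus here. In Cre plus mice the recombinase is driven by an interferon-responsive promoter, and injection of polyinosinic-polycytidylic acid, which induces interferon, removes Rps6. The labels do not say whether Cre minus mice were injected as well. No sham-operated group is named, so the effects of the operation and of the lost liver mass cannot be told apart. The labels do not say that each array came from its own mouse. A p-value here thus measures only the spread within groups, shared over all 32 arrays of the series, and that spread may be technical. Each value is from whole liver, where fewer cells of a type and less RNA per cell cannot be told apart.

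After partial hepatectomy the remaining lobes of the liver grow until its mass is regained. Hepatocytes are quiescent in the adult. They enter the cell cycle, build ribosomes and membranes and replicate their DNA while the organ continues to make plasma proteins, bile acids and urea. Fatty acids released from body fat reach the liver early in regeneration and are stored for a time in hepatocyte lipid droplets.

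Every value is a log2 array signal, and a difference of 1 is a 2-fold change. Livers are named by the letter A, B, C or D that their titles give. The labels also give a batch, PHX2 or PHX3. Among 0 h livers, A and C were of PHX3 and B and D of PHX2; among 20 h livers, A and B were of PHX3 and C and D of PHX2. The targeted gene was measured by a probe set that Rps6 shares with a pseudogene, Rps6-ps4. It read 11.03, 11.16, 11.27 and 10.99 in 0 h livers A to D and 11.55, 11.82, 11.43 and 11.48 in 20 h livers A to D, against 6.24 to 7.69 in the 8 Cre plus livers of those times. The Rps6 levels of both Cre minus groups thus lay far above every Cre plus liver. The difference of 0.45 (SE 0.15) between 20 h and 0 h did not pass the test (adjusted p = 0.0675).

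Albumin (Alb), the main plasma protein made by hepatocytes, read 13.76 to 13.79 at 0 h and 13.63 to 13.78 at 20 h, with a difference of -0.06 (SE 0.07, adjusted p = 0.70). Of 9 hepatocyte markers 1 rose (Fgb, a fibrinogen chain) and 1 fell (Ttr, transthyretin). The 4 livers of the 0 h group correlated at a mean r of 0.990 with each other over the 9249 probe sets that were tested. Livers of the 20 h group correlated at 0.983 to 0.992 within a batch and at 0.959 to 0.967 across batches. PHX3 and PHX2 differed in 308 of 9249 probe sets among 20 h livers and in 2 among 0 h livers. The 3' to 5' signal difference of Gapdh, a sign of RNA length, was 0.24 ± 0.072 (SD, n = 4) at 0 h and 0.17 ± 0.049 (SD, n = 4) at 20 h. Because the 20 h livers part by batch, differences within PHX2 and within PHX3 (2 livers against 2) are given beside the results. Whether the change from 0 h to 20 h differed between PHX3 and PHX2 was tested directly with limma. It was called in 0 of 9249 probe sets at an adjusted p below 0.05. At an unadjusted p below 0.05 there were 586, where 462.5 would pass by chance. A gap between the 2 batch values of a gene is therefore a description, not a called difference.

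At 20 h, 308 of the 9249 probe sets tested were higher than at 0 h (3.33%) and 374 were lower (4.04%) at an adjusted p below 0.05. Probe sets that pass this rule are said to have risen or fallen. At an unadjusted p below 0.05 there were 1969, where 462.5 would pass by chance. Over all 9249 probe sets the differences within PHX2 and within PHX3 correlated at r = 0.558, a value across probe sets, which are not independent replicates. The 4 livers of 20 h all lay above the 4 of 0 h for 783 probe sets (8.47%) and all below for 784 (8.48%). Among the calls, 266 of 308 higher and 327 of 374 lower probe sets had groups that did not overlap. The number called higher fell to 132 without 0 h liver A, and the number called lower fell to 194 without 20 h liver C. Only leaving out 20 h liver A kept both counts within 1.5 times. With each gene taken by its brightest probe set, 223 of 6786 genes rose (3.29%) and 299 fell (4.41%), and the median difference of all genes was -0.03. These gene shares are the background for every list count below. The lists were chosen with earlier results of these data known.

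**Figure D1:**
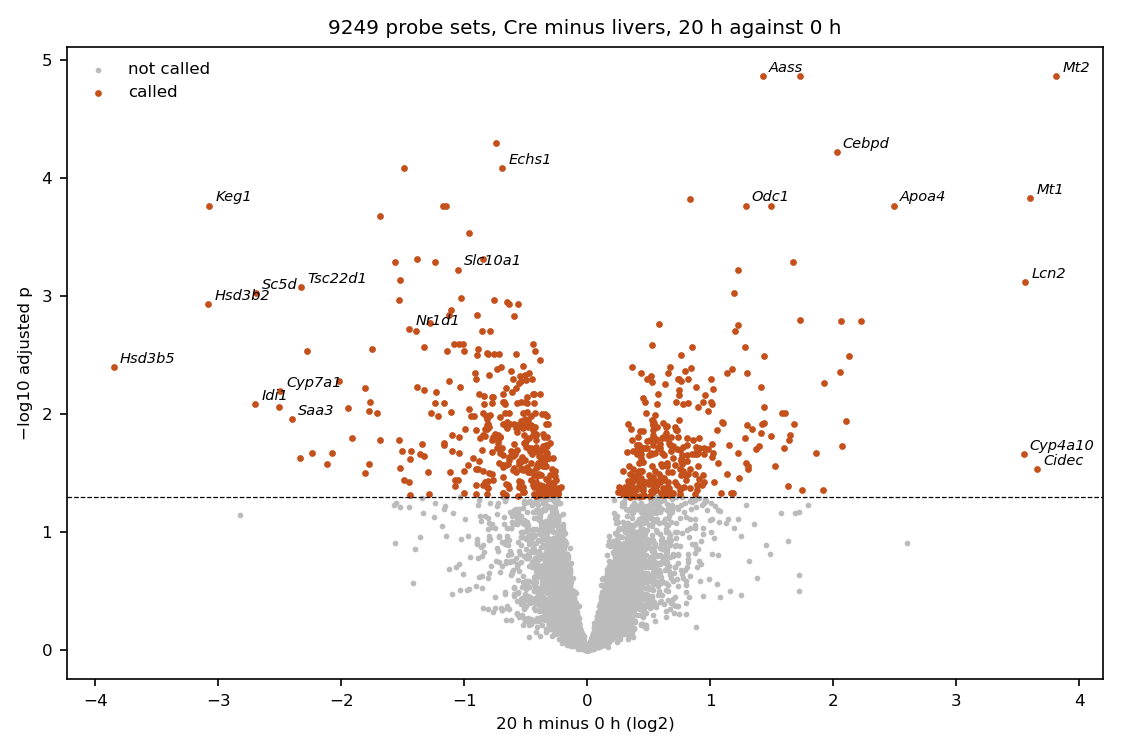
Difference between 20 h and 0 h Cre minus livers (log2, horizontal) against −log10 of the adjusted p (vertical) for the 9249 probe sets tested; orange points lie above the dashed line at an adjusted p of 0.05. Mt2, Mt1, Lcn2, Cidec and Cyp4a10 lie farthest to the right and Hsd3b5, Hsd3b2 and Keg1 farthest to the left.

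The metallothioneins, small cysteine-rich proteins that bind zinc and copper, were among the 5 genes with the largest rises, and Mt2 had the largest of all. The letters of the metal response element core (TGCACNC or TGCGCNC, on either strand), through which the zinc sensor MTF1 acts, were searched in the 250 bases before the start of Mt1 and Mt2, and the stretches found are printed because these genes moved together. The sequences are RefSeq's for GRCm38.p6, 5′ to 3′ on the plus strand, with the core in capitals. They lie at chr8:94179046-94179088 (Mt1), chr8:94172375-94172421, chr8:94172470-94172516 and chr8:94172548-94172594 (Mt2).
Mt1: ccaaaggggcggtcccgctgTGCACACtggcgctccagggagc
Mt2, first: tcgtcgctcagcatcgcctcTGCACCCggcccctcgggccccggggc
Mt2, second: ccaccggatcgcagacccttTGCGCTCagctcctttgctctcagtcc
Mt2, last: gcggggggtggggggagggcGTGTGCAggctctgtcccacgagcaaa
The core is short, and 23.8% of 27025 genes with a promoter held it. This search was added after the values were seen.

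Mt2 read 7.87, 9.49, 8.75 and 9.04 in 0 h livers A to D and 12.84, 11.71, 12.92 and 12.95 in 20 h livers A to D. Its lowest 20 h liver, B, was still above its highest 0 h liver by over 2 log2 units. Mt2 rose by 3.82 (SE 0.44, 14.1-fold, adjusted p = 1.36e-05), with 3.67 within PHX2 and 3.97 within PHX3. Mt1, from the neighbouring gene, read 7.95, 9.75, 9.28 and 9.33 at 0 h and 12.69, 11.39, 13.34 and 13.30 at 20 h. It rose by 3.60 (SE 0.50, adjusted p = 0.000148). The same 0 h liver, A, was lowest and the same 20 h liver, B, was lowest for both genes.

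Acute phase genes, which hepatocytes switch on in response to interleukin-6 and interleukin-1, moved in both directions. Of 34 tested, 7 rose, Mt1 and Mt2 among them, and 1 fell, with a median of 0.19. Lcn2, the iron-siderophore binding lipocalin, read 7.0, 8.48, 9.24 and 7.91 at 0 h and 12.60, 12.11, 11.08 and 11.11 at 20 h. Its groups did not overlap, and Lcn2 rose by 3.56 (SE 0.59, 11.8-fold, adjusted p = 0.000754), by 2.90 in PHX2 and 4.23 in PHX3. A second, dimmer Lcn2 probe set gave 0.24 (adjusted p = 0.284). Serpina3n, a protease inhibitor, rose by 1.30 (SE 0.27, adjusted p = 0.00444). The fibrinogen chains Fgb and Fgg rose by 0.64 and 0.56. Saa3, a serum amyloid A made largely outside hepatocytes, went the other way. It read 10.53, 11.36, 12.76 and 11.35 at 0 h and 8.57, 9.31, 9.21 and 9.29 at 20 h, so that it fell by 2.41 (SE 0.56, adjusted p = 0.0111). The receptor gene Il1r1 rose by 1.86 (SE 0.49, adjusted p = 0.0212). Leaving out 1 liver ended the calls of Saa3 (0.0532 without 0 h C), Fgg (up to 0.058, without 20 h D) and Il1r1 (up to 0.0678, without 20 h D) as adjusted p.

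Lcn2 and S100a8 are also neutrophil genes. S100a8 rose by 1.09 (SE 0.34, adjusted p = 0.0464), a call lost without any 1 of the 8 livers (adjusted p up to 0.202, without 0 h A). They were the 2 of 10 neutrophil and monocyte markers called, and the median of that list was -0.04. Ly6g, a defining neutrophil surface marker, had a mean of 5.24 at 0 h and 5.0 at 20 h, and Ngp, a granule protein, 5.02 and 4.88. The part of neutrophils in the rise of Lcn2 was not tested.

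The CCAAT/enhancer-binding proteins are transcription factors that set the balance between hepatocyte growth and differentiated function. Cebpd and Cebpb, which are induced in the acute phase, rose, and Cebpa, which is high in quiescent hepatocytes, fell. Cebpd read 5.95, 6.38, 6.34 and 5.95 at 0 h and 7.84, 8.35, 8.35 and 8.19 at 20 h, a rise of 2.03 (SE 0.26, adjusted p = 6.04e-05). Cebpb read 9.27, 8.58, 9.18 and 8.5 at 0 h and 10.39, 10.26, 9.72 and 9.95 at 20 h, a rise of 1.20 (SE 0.20, adjusted p = 0.000938). Cebpa read 11.74, 11.37, 11.42 and 11.15 at 0 h and 10.93, 9.997, 9.86 and 9.82 at 20 h. It fell by 1.27 (SE 0.29, adjusted p = 0.00972), and 20 h liver A lay closest to the 0 h group. None of the 3 genes had overlapping groups, and each call held when any 1 of the 8 livers was left out.

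Other regulators that changed were few. Of 35 immediate early and growth-control factors, 3 rose and 1 fell, and besides the 3 genes above this was Gadd45g, a stress-induced growth arrest factor (1.93, SE 0.41, adjusted p = 0.00548). Without 20 h liver A, 5 rose and 2 fell. The classic immediate early genes did not pass the test. Fos differed by 0.34 (SE 0.52), Jun by 0.29 (SE 0.16) and Myc by 0.59 (SE 0.37), with adjusted p of 0.745, 0.296 and 0.386. Nr1d1, the clock repressor REV-ERBα, read 7.97, 8.02, 7.90 and 7.96 at 0 h and 6.28, 6.50, 6.76 and 6.51 at 20 h. It fell by 1.45 (SE 0.27, adjusted p = 0.00191). Tsc22d1, a leucine zipper protein, fell by 2.33 (SE 0.39, adjusted p = 0.000839) and read 7.93 in 20 h liver A against 5.83 to 6.16 in the other 3. Foxo3, a transcription factor restrained by insulin signalling, fell by 0.72 (SE 0.14, adjusted p = 0.00311).

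**Figure D2:**
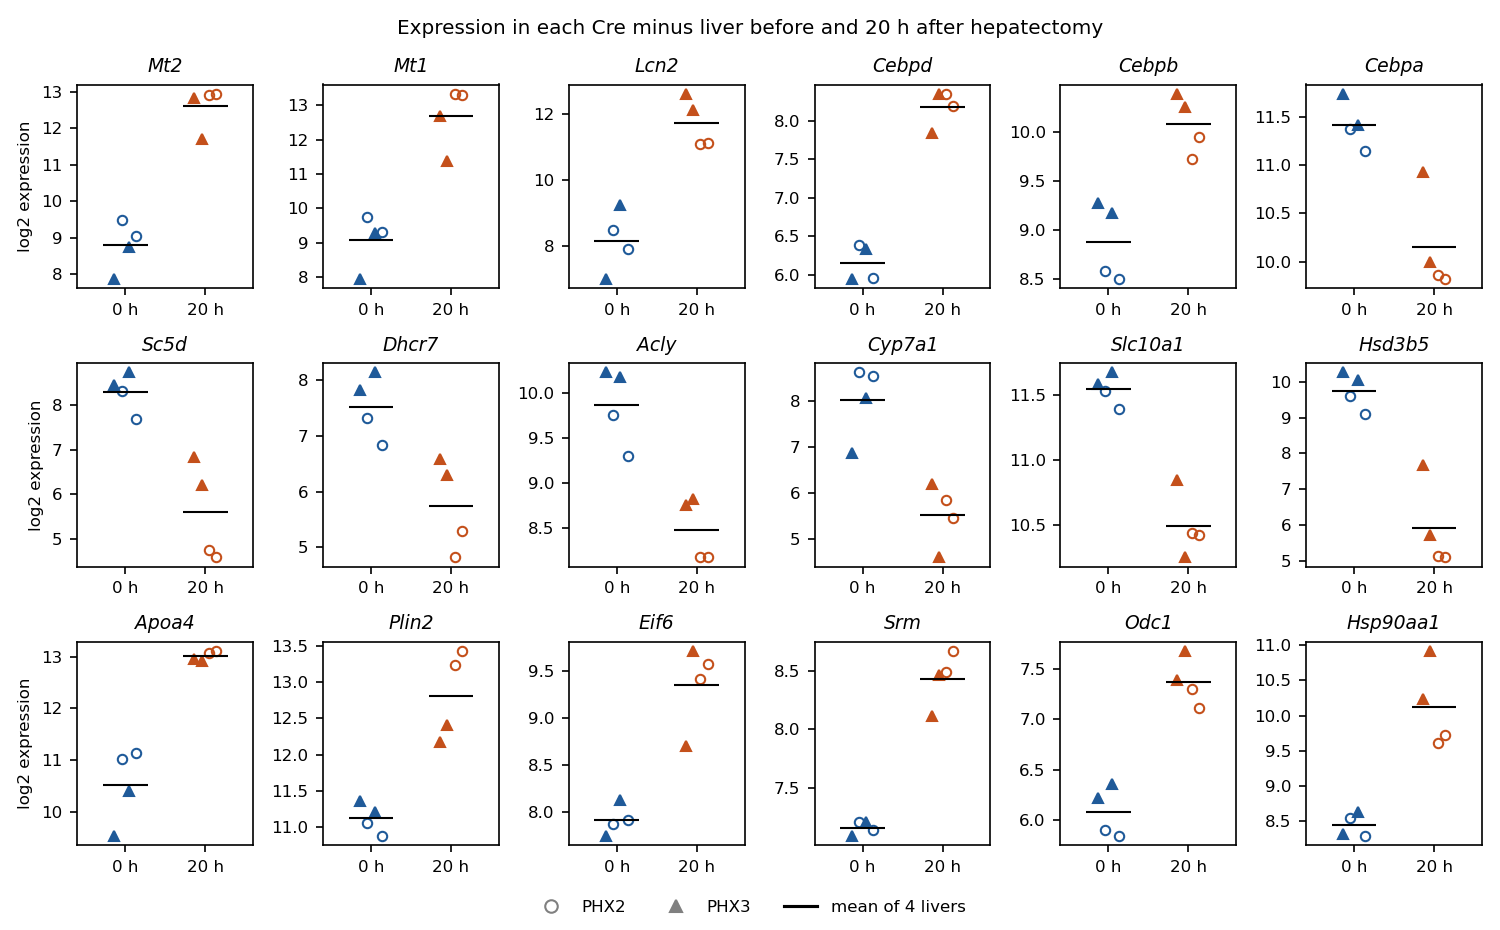
log2 expression of 18 genes in each Cre minus liver at 0 h (blue) and 20 h (orange); circles are PHX2, triangles PHX3 and bars the mean of 4 livers. The groups do not overlap for any of the genes shown, and in several (Sc5d, Dhcr7, Plin2, Lcn2) the 20 h livers also part by batch.

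Among 16 enzymes of cholesterol synthesis placed in pathway order, 12 fell and 4 did not pass the test. Cells make cholesterol from acetyl-CoA through mevalonate and squalene, and the transcription factor SREBP2 raises the whole set of enzymes when sterols are scarce. Of 21 genes of cholesterol synthesis and uptake tested, 12 fell and none rose, with a median of -1.19 against -0.03 over all genes. The median was -1.43 within PHX2 and -0.86 within PHX3. In 20 h livers A to D the list median, relative to the 0 h mean, was -0.76, -0.90, -1.49 and -1.38, and in 0 h livers it was -0.10 to 0.12. Without 20 h liver C or D, 7 members fell.

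In pathway order, the early enzymes include Hmgcs1, which makes HMG-CoA. Hmgcs1 read 9.23, 9.55, 9.66 and 8.63 at 0 h and 8.30, 8.04, 5.71 and 6.08 at 20 h. It fell by 2.24 (SE 0.60, adjusted p = 0.0213), by 3.20 in PHX2 and 1.28 in PHX3. The mevalonate enzymes Mvk and Mvd fell by 0.57 and 1.32 (adjusted p = 0.0127 and 0.00267). Idi1, the isopentenyl diphosphate isomerase, read 10.33, 10.66, 10.52 and 10.36 at 0 h and 8.92, 8.66, 6.78 and 6.70 at 20 h. It had the largest change of the list and fell by 2.70 (SE 0.61, 6.50-fold, adjusted p = 0.00826).

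The next enzymes build squalene and close its rings. Fdps and Fdft1 fell by 1.77 and 1.71 (adjusted p = 0.0262 and 0.00981), and Lss, lanosterol synthase, by 1.04 (adjusted p = 0.0212). Sqle, squalene epoxidase, differed by -1.19 (SE 0.42) and did not pass the test (adjusted p = 0.0885), although its groups did not overlap.

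The last enzymes turn lanosterol into cholesterol. Sc5d read 8.44, 8.32, 8.73 and 7.68 at 0 h and 6.83, 6.22, 4.76 and 4.58 at 20 h, and it fell by 2.69 (SE 0.46, adjusted p = 0.000946). A second Sc5d probe set fell by 2.51 (adjusted p = 0.00866). Dhcr7, which makes cholesterol itself, fell by 1.78 (SE 0.41, adjusted p = 0.00943), Msmo1 by 2.12 (adjusted p = 0.0265), Nsdhl by 1.69 (adjusted p = 0.0165) and Cyp51 by 1.45 (adjusted p = 0.0481). Hsd17b7 read 5.65 to 5.94 at 0 h and 5.50 to 6.22 at 20 h (difference 0.01, SE 0.26), and Tm7sf2 (-0.48) and Ebp (-0.63) did not pass the test. The calls of Idi1, Sc5d, Dhcr7, Fdft1, Nsdhl, Mvd and Mvk held whichever liver was left out. Those of Hmgcs1, Msmo1, Fdps, Lss and Cyp51 did not, with an adjusted p of up to 0.0821 (without 0 h B), 0.0992 (20 h C), 0.0712 (20 h B), 0.0643 (20 h D) and 0.143 (20 h C).

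**Figure D3:**
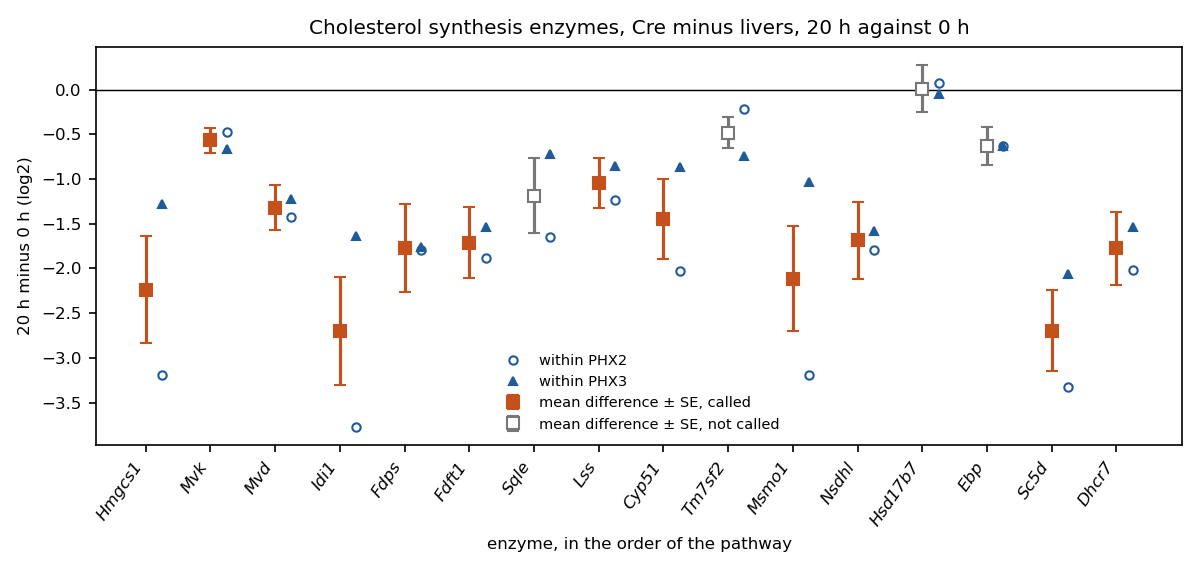
Difference between 20 h and 0 h Cre minus livers (log2, squares, with SE) for 16 enzymes in pathway order; filled squares passed the test, open squares did not, and circles and triangles are the differences within PHX2 and PHX3. All enzymes except Hsd17b7 lie below 0, and Hmgcs1, Idi1, Msmo1 and Sc5d lie lower in PHX2 than in PHX3.

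The core sterol response element (CACCCCAC, on either strand), the letters bound by SREBP proteins, was searched in the 250 bases before the start of the 16 members that matched a RefSeq promoter. Hmgcs1 alone held it (6.25% of 16), against 2.98% of all 27025 genes. Its stretch, at chr13:119690195-119690242 of GRCm38.p6 on the plus strand, is shown with the element in capitals because Hmgcs1 is the first of the 12 enzymes that fell.
Hmgcs1: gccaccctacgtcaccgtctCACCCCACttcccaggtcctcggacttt
For the other 15 members these letters are not in this window.

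Lipogenic genes make fatty acids from citrate under the control of insulin and SREBP1. Of 22 tested, 9 fell, none rose and 13 did not pass the test, 7 had a positive difference, and the median was -0.42. Acly, ATP citrate lyase, read 10.23, 9.76, 10.18 and 9.30 at 0 h and 8.76, 8.82, 8.17 and 8.17 at 20 h. It fell by 1.39 (SE 0.29, adjusted p = 0.00587), by a like amount in both batches (-1.36 and -1.41), and the citrate carrier Slc25a1 fell by 0.45 (adjusted p = 0.00504). Srebf1, which encodes SREBP1, read 9.97 to 10.49 at 0 h and 7.90 to 8.34 at 20 h, and it fell by 2.08 (SE 0.55, adjusted p = 0.0213). Fatty acid synthase (Fasn), the elongase Elovl6 and the lipogenic regulator Thrsp gave -1.53, -1.51 and -2.34 and all passed the test (adjusted p = 0.0166, 0.0205 and 0.0234). The stearoyl-CoA desaturase Scd1 did not pass the test (0.14, SE 0.41), with 0.65 in PHX2 and -0.36 in PHX3. Leaving out 0 h liver C ended the calls of Srebf1, Fasn, Elovl6 and Thrsp (adjusted p = 0.0752, 0.0571, 0.0778 and 0.0842), and 3 to 5 members fell without 0 h A, 0 h C, 20 h C or 20 h D.

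Of 27 genes of lipid droplets, lipolysis and fatty acid uptake, 5 rose, 2 fell and 20 did not pass the test. The falls were in Cideb, a droplet protein related to Cidec, which fell by 0.68 (adjusted p = 0.0281), and in Slc27a5, a fatty acid and bile acid CoA ligase, which fell by 0.52 (adjusted p = 0.0452). These calls were lost without 20 h D (Cideb, adjusted p = 0.0991) and 0 h C (Slc27a5, 0.141), and 0 or 1 member fell without any 1 liver except 20 h A. Apoa4, an apolipoprotein of triglyceride-rich particles, read 9.53, 11.01, 10.40 and 11.13 at 0 h and 12.96, 12.91, 13.07 and 13.11 at 20 h. All 4 livers of 20 h lay close together and above the 0 h group, and Apoa4 rose by 2.49 (SE 0.36, 5.63-fold, adjusted p = 0.000171). Plin2, which coats droplets, read 10.88 to 11.36 at 0 h and 12.17, 12.41, 13.24 and 13.43 at 20 h, a rise of 1.68 (SE 0.40, adjusted p = 0.0121). Cidec, a droplet fusion protein best known from adipocytes, read 4.35 to 4.79 at 0 h and 5.86, 7.49, 9.59 and 9.76 at 20 h.

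Cidec rose by 3.66 (SE 1.03, 12.7-fold, adjusted p = 0.0291), by 5.25 in PHX2 and 2.08 in PHX3, and its 20 h livers spread over almost 4 log2 units. It was the only one of 7 adipocyte markers called: the adipocyte lipid carrier Fabp4 had a mean of 4.94 at 0 h and 5.25 at 20 h, and leptin (Lep) 8.98 and 8.71. Angptl4, an inhibitor of lipoprotein lipase, rose by 0.81 by its brightest probe set (adjusted p = 0.0249), while its other probe sets gave 1.73 and -0.06. Leaving out 20 h liver D ended the calls of Cidec (adjusted p = 0.104) and Plin2 (0.0528), and leaving out 0 h liver B that of Angptl4 (0.0764). The list had 2 or 3 rises without 0 h A, 0 h B, 20 h C or 20 h D.

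Genes of fatty acid oxidation, many of them targets of the fatty acid sensing nuclear receptor PPARα, moved in both directions. Of 31 tested, 5 rose and 4 fell, with a median of 0.21. Cyp4a10, a fatty acid omega-hydroxylase, read 3.8, 5.66, 4.60 and 5.86 at 0 h and 9.03, 8.74, 8.5 and 7.84 at 20 h, a rise of 3.55 (SE 0.95, adjusted p = 0.0218). Its probe set may also bind other Cyp4a transcripts. Eci2, an enoyl-CoA isomerase, rose by 1.18 (SE 0.24, adjusted p = 0.00417), and the peroxisomal genes Ehhadh and Pex11a rose by 1.75 and 1.64 (adjusted p = 0.0441 and 0.0402). Acadl, a mitochondrial acyl-CoA dehydrogenase, rose by 0.80 (adjusted p = 0.0359).

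The members that fell included the mitochondrial enzymes Echs1 and Hadh and the peroxisomal catalase Cat. Echs1 read 9.56 to 9.81 at 0 h and 8.77 to 9.36 at 20 h, and it fell by 0.69 (SE 0.09, adjusted p = 8.18e-05). Hadh fell by 0.71 and Cat by 1.09 (adjusted p = 0.0105 and 0.00255), although a second, dimmer Cat probe set gave -0.09. Ppara itself differed by 0.09 (SE 0.21) and the carnitine transferase Cpt1a by 0.72 (SE 0.32, adjusted p = 0.195). Among the risers only the call of Eci2 held under every omission. Ehhadh reached an adjusted p of 0.134 without 20 h C, Pex11a 0.151 without 20 h D, Acadl 0.0983 without 0 h C and Cyp4a10 0.0937 without 0 h A, and 1 to 3 members rose without any 1 liver except 20 h A.

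The largest falls of all named genes were in the 3β-hydroxysteroid dehydrogenase family. Hsd3b5, a male-predominant liver enzyme that depends on the pulsed growth hormone of males, read 10.27, 9.59, 10.05 and 9.10 at 0 h and 7.67, 5.71, 5.13 and 5.09 at 20 h. It fell by 3.85 (SE 0.77, 14.4-fold, adjusted p = 0.00395). Hsd3b2 fell by 3.08 (SE 0.54, adjusted p = 0.00117) and Hsd3b6 by 2.02 (SE 0.42, adjusted p = 0.00521). These genes are close relatives whose probe sets may share transcripts, so the 3 falls are not independent. Keg1 fell by 3.08 (SE 0.45, adjusted p = 0.000171) and Car5a, a mitochondrial carbonic anhydrase that serves urea synthesis, by 1.94 (SE 0.44, adjusted p = 0.00883).

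The growth hormone receptor Ghr fell by 0.72 (SE 0.18, adjusted p = 0.0149), and its second probe set by 1.21 (adjusted p = 0.0104). Igfals, which carries insulin-like growth factor in blood, fell by 1.0 (adjusted p = 0.0305). Igf1 did not pass the test (0.20, SE 0.09, adjusted p = 0.213), with 10.89 to 11.51 over all 8 livers. Of 26 genes of the growth hormone and IGF axis, these 2 and Hsd3b5 fell and none rose. The call of Ghr was lost without 20 h C (adjusted p = 0.0569) and that of Igfals without 20 h D (0.103), and 1 member fell without 0 h A, 0 h C or 20 h C.

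Cyp7a1, the rate-limiting enzyme of bile acid synthesis, read 6.88, 8.62, 8.08 and 8.54 at 0 h and 6.21, 4.61, 5.86 and 5.46 at 20 h. It fell by 2.50 (SE 0.54, 5.65-fold, adjusted p = 0.00638). Slc10a1, the main uptake carrier for bile acids, read 11.39 to 11.67 at 0 h and 10.25 to 10.84 at 20 h, and it fell by 1.05 (SE 0.17, adjusted p = 0.000595). Of 22 genes of bile acid synthesis, transport and sensing, 5 fell and none rose. The count was 2 or 3 without any 1 liver except 0 h C and 20 h A.

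Of 28 cytochrome P450 genes, 7 fell and 2 rose, with a median of -0.44. Cyp2f2, a xenobiotic enzyme of periportal hepatocytes, fell by 1.24 (SE 0.28, adjusted p = 0.00803) and Cyp2c29 by 0.66 (adjusted p = 0.0126). Cyp1a2, of pericentral hepatocytes, fell by 0.85 (SE 0.20, adjusted p = 0.00985), by 0.28 in PHX2 and 1.41 in PHX3. Cyp2b10, the drug-inducible target of the receptor CAR, rose instead. It read 7.90 to 8.51 at 0 h and 8.80 to 11.42 at 20 h, lowest in A and highest in D, a rise of 2.10 (SE 0.50, adjusted p = 0.0115) that reached an adjusted p of 0.0537 without 20 h D.

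Of 41 genes of the urea cycle and amino acid catabolism, 9 fell and 3 rose, with a median of -0.42. Qdpr, which recycles the cofactor of phenylalanine breakdown, fell by 1.04 (SE 0.20, adjusted p = 0.00252) and Ivd, of leucine breakdown, by 0.91 (SE 0.19, adjusted p = 0.00444). Otc and Arg1, both of the urea cycle, moved oppositely. Otc fell by 0.77 (adjusted p = 0.0154), while Arg1, arginase, rose by 0.58 (SE 0.13, adjusted p = 0.00676). Aass, the first enzyme of lysine breakdown, read 9.29 to 9.67 at 0 h and 10.45 to 11.12 at 20 h. Its rise of 1.43 (SE 0.17, adjusted p = 1.36e-05) shared the lowest adjusted p of the comparison with Mt2 and Wdr92.

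Of 53 secreted plasma proteins and apolipoproteins, 13 fell and 3 rose, with a median of -0.32. Klkb1, plasma prekallikrein, read 7.51 to 7.86 at 0 h and 6.14 to 6.34 at 20 h, and it fell by 1.39 (SE 0.26, adjusted p = 0.00198). The coagulation genes F13b, F10 and Proc fell by 0.68, 0.69 and 0.59 (adjusted p = 0.00794, 0.0121 and 0.00148). Transthyretin (Ttr) fell by 1.35 (adjusted p = 0.0179, and 0.0627 without 20 h B). Apoa4, above, rose most, and Agt, angiotensinogen, rose by 0.91 (adjusted p = 0.0192, and 0.0705 without 20 h C). Between 6 and 8 members fell without 0 h A, 0 h B, 0 h C, 20 h C or 20 h D, and 1 rose without 0 h A, 0 h D or 20 h C.

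Glutathione enzymes and the respiratory chain had smaller numbers of calls. Gsta3, a glutathione S-transferase, read 10.01 to 10.28 at 0 h and 8.28 to 8.66 at 20 h, and it fell by 1.75 (SE 0.33, adjusted p = 0.00281). Gstk1 fell by 0.80 (SE 0.16, adjusted p = 0.00311). Of 38 NRF2 targets and glutathione enzymes, 5 fell and 3 rose, and Txnrd1, thioredoxin reductase, was the largest riser (0.73, adjusted p = 0.0196, and 0.0781 without 20 h D). The 3 rises became 0 or 1 without any 1 liver except 20 h A, and 3 members fell without 0 h A or 20 h C. Srxn1, an NRF2 target, gave opposite values: -0.39 (adjusted p = 0.226) by its brighter probe set and 2.07 (adjusted p = 0.00163) by the other. Of 60 respiratory chain subunits, 4 fell, with Ndufs4 the strongest (-0.63, SE 0.11, adjusted p = 0.00117), and 1 or 2 fell without 0 h A, 0 h C, 20 h B, 20 h C or 20 h D.

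Ribosome biogenesis factors work in the nucleolus, where ribosomal RNA is transcribed, trimmed and assembled with ribosomal proteins. Of 63 tested, 15 rose, none fell and 48 did not pass the test. In all, 60 had a positive difference, and the median was 0.34 (0.45 in PHX2 and 0.21 in PHX3). Over all genes 44.2% had a positive difference. The list median was 0.12, 0.27, 0.44 and 0.57 in 20 h livers A to D and -0.05 to 0.05 at 0 h, so every 20 h liver lay above every 0 h liver.

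Eif6, which joins the maturing large subunit, read 7.74, 7.87, 8.12 and 7.91 at 0 h and 8.70, 9.71, 9.42 and 9.58 at 20 h. It rose by 1.44 (SE 0.28, adjusted p = 0.00318). Rrs1, another large subunit factor, read 6.10 to 6.23 at 0 h and 6.84 to 7.15 at 20 h, a rise of 0.83 (SE 0.12, adjusted p = 0.000151), and Utp18, of the small subunit processome, rose by 0.77 (adjusted p = 0.00525). Gnl3, nucleostemin, rose by 0.98 (SE 0.22, adjusted p = 0.00943). These 4 calls held under every omission, and every other rise of the list was lost without at least 1 liver. Tsr1, with a larger rise than Gnl3, was one of those lost. It rose by 1.055 (SE 0.26, adjusted p = 0.0135, and 0.06 without 20 h D).

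The abundant nucleolar proteins nucleolin (Ncl), nucleophosmin (Npm1) and Nop56 rose by 0.98, 0.89 and 1.30 (adjusted p = 0.0196, 0.0399 and 0.0124), with an adjusted p of up to 0.0782, 0.145 and 0.0622 without 20 h D. A second, dimmer Nop56 probe set gave 0.08 (adjusted p = 0.824). The whole list had 4 to 9 rises without 0 h A, 0 h B, 20 h B, 20 h C or 20 h D and 21 without 20 h A. The E-box CACGTG, bound by MYC among others, was in the promoter windows of 4 of 52 members (7.69%) and of 6.86% of all genes.

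Of 29 cytosolic ribosomal proteins other than Rps6, 7 rose and none fell, with a median of 0.24. Rplp0, of the ribosomal stalk, read 11.55 to 11.75 at 0 h and 11.99 to 12.21 at 20 h, a rise of 0.44 (SE 0.09, adjusted p = 0.00444). It was the one ribosomal protein whose call held under every omission, and 1 to 3 members rose without any 1 liver except 20 h A. Of 37 translation factors, 6 rose and 1 fell (Eif4ebp2, a repressor of cap-dependent initiation, by 0.90, adjusted p = 0.0294, and 0.122 without 20 h C, while its other probe sets gave -0.19 and -0.34 and were not called), with a median of 0.25. The poly(A)-binding proteins Pabpc1 and Pabpc4 rose by 0.79 and 0.95 (adjusted p = 0.00428 and 0.00794), the termination factor Etf1 by 0.84 (adjusted p = 0.00404) and the helicase Eif4a1 by 0.59 (adjusted p = 0.00174). A second, dimmer Pabpc4 probe set gave 0.02, and the other Etf1 probe sets gave -0.01, 0.42, 0.46 and 0.65. None of these passed the test. Eif1a and Eif5 also rose, by 0.83 and 0.75 (adjusted p = 0.0419 and 0.0291). Their calls were lost without 0 h A (Eif1a, adjusted p = 0.123) and 20 h D (Eif5, 0.103).

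Polyamines are needed for growth, and Odc1 and Srm, of their synthesis, rose. Odc1, ornithine decarboxylase, read 6.22, 5.90, 6.36 and 5.84 at 0 h and 7.39, 7.68, 7.30 and 7.11 at 20 h, a rise of 1.29 (SE 0.19, 2.44-fold, adjusted p = 0.000171). Srm, spermidine synthase, read 7.08, 7.20, 7.20 and 7.13 at 0 h and 8.12, 8.47, 8.49 and 8.68 at 20 h, a rise of 1.28 (SE 0.24, adjusted p = 0.00272). The lowest 20 h liver exceeded the highest 0 h liver for both. Ctps, which makes CTP, rose by 1.01 (SE 0.21, adjusted p = 0.00504). Of 26 genes of nucleotide and polyamine synthesis, 4 rose and 1 fell.

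Chaperones help new and damaged proteins fold. Of 29 cytosolic and mitochondrial chaperones, 7 rose and none fell. The list median in 20 h livers A to D was 0.51, 0.78, 0.08 and 0.08, and the PHX3 livers A and B were the high ones. Hsp90aa1, the inducible cytosolic HSP90, read 8.31, 8.53, 8.63 and 8.28 at 0 h and 10.23, 10.92, 9.60 and 9.72 at 20 h. It rose by 1.68 (SE 0.27, adjusted p = 0.000518), by 1.25 in PHX2 and 2.10 in PHX3, and its call held under every omission. Fkbp5, a cochaperone of the glucocorticoid receptor, rose by 1.64 (adjusted p = 0.0164, and 0.0708 without 20 h D). The list had 1 to 3 rises without any 1 liver except 0 h C and 20 h A.

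Endoplasmic reticulum chaperones fold secreted proteins and are induced by the unfolded protein response. Of 47 tested, 2 rose and none fell, and the list median was 0.42 and 0.25 in 20 h livers A and B but -0.18 and -0.17 in C and D. Creld2 read 6.75 to 7.40 at 0 h and 9.84, 9.45, 7.70 and 7.93 at 20 h, a rise of 1.65 (SE 0.41, adjusted p = 0.0151) made of 0.60 in PHX2 and 2.71 in PHX3. Dnajc3 rose by 0.81 (SE 0.22, adjusted p = 0.022), by 0.22 in PHX2 and 1.39 in PHX3. Other Dnajc3 probe sets gave 0.58 and 0.24 and were not called (adjusted p = 0.0835 and 0.722). Hspa5, the chaperone BiP, read 11.31, 11.26, 10.36 and 10.64 at 20 h and did not pass the test (0.70, SE 0.36, adjusted p = 0.261). The calls ended without 0 h A (Creld2, adjusted p = 0.0669) and without 20 h B (Dnajc3, 0.0999), and 0 or 1 member rose without 0 h A, 0 h C, 20 h A or 20 h B.

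The element of the unfolded protein response (CCAAT, any 9 bases, then CCACG, on either strand) was in the promoter windows of 7 of 38 of these genes (18.4%) and of 0.13% of all genes. Creld2 and Dnajc3 are printed because they rose, and Hspa5 as the best-known target of the response. They lie at chr15:88819500-88819558, chr14:118937807-118937865 and chr2:34772005-34772063 (RefSeq, GRCm38.p6, plus strand), with the element in capitals.
Creld2: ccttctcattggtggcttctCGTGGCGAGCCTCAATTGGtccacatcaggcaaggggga
Dnajc3: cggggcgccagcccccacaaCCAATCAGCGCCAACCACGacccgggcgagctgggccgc
Hspa5: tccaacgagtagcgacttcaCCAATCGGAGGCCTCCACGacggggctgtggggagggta
Creld2 holds it on the opposite strand. A match is a description of letters, not a site in use.

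**Figure D4:**
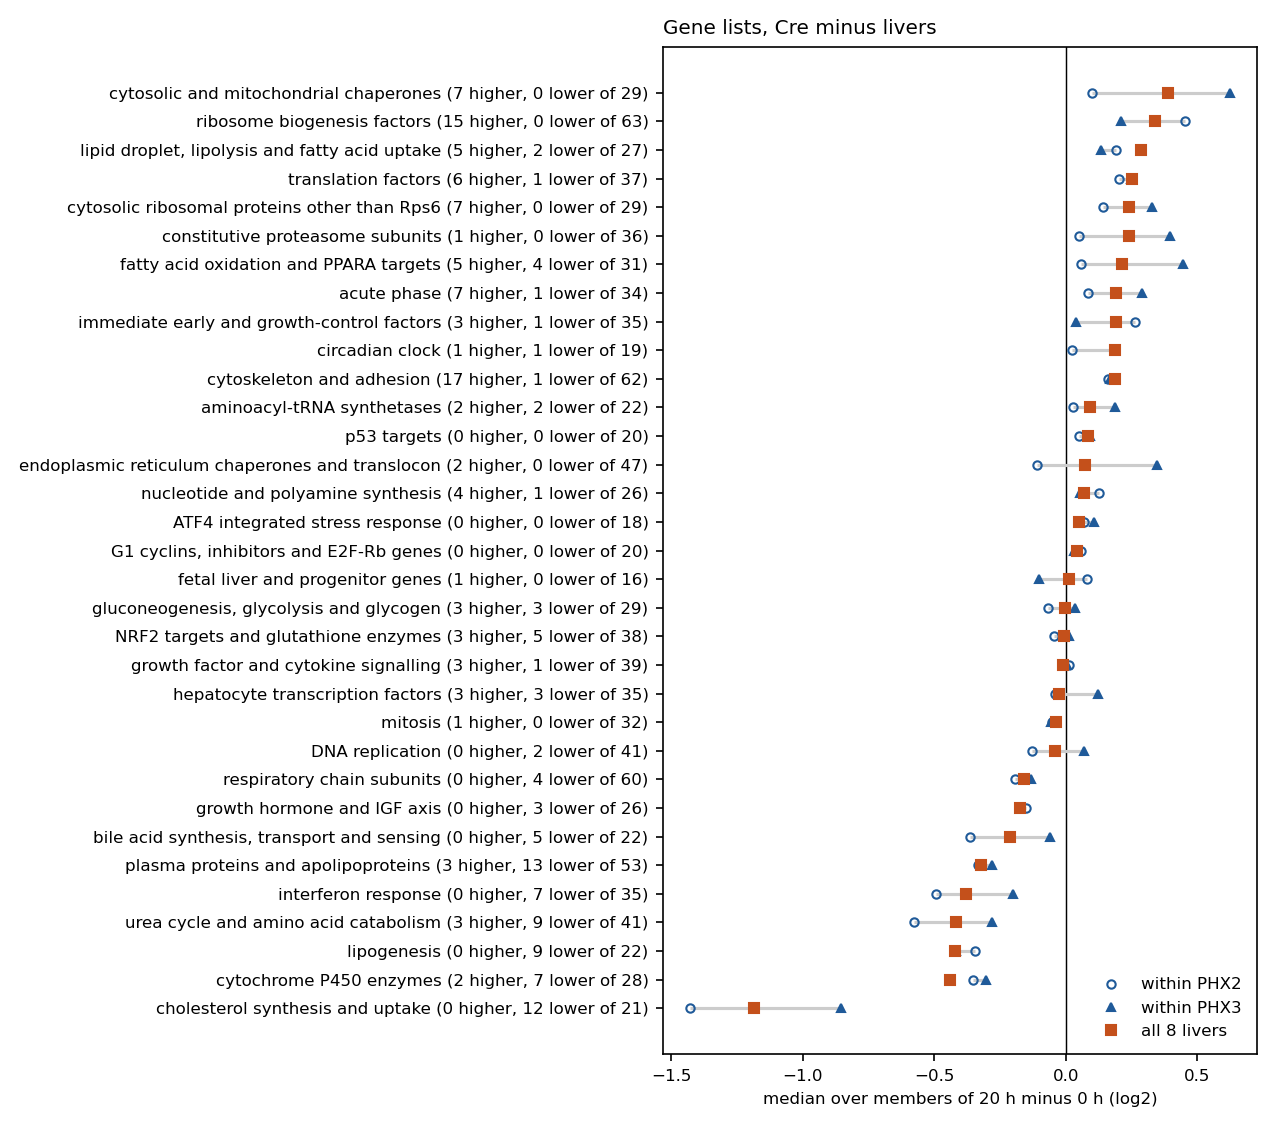
Median difference between 20 h and 0 h Cre minus livers over the tested members of each pathway list (log2, squares), with the medians within PHX2 (circles) and PHX3 (triangles); the labels give the members called. Cholesterol synthesis lies lowest at -1.19 and cytosolic chaperones highest at 0.39, and the batches lie on opposite sides of 0 for endoplasmic reticulum chaperones.

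Of 62 cytoskeleton and adhesion genes, 17 rose and 1 fell, with a median of 0.19. This long list had the most rises by number, next to 15 of 63 for ribosome biogenesis factors, whose median was higher (0.34). Krt8, a hepatocyte keratin, read 9.78, 9.42, 9.58 and 9.73 at 0 h and 10.01, 11.94, 11.05 and 11.28 at 20 h, a rise of 1.44 (SE 0.33, adjusted p = 0.00874). Its partner Krt18 rose by 1.18 (adjusted p = 0.0466, and 0.179 without 20 h B). The gap junction genes moved oppositely. Gja1, connexin 43, read 5.24 to 5.71 at 0 h and 6.42 to 6.86 at 20 h and rose by 1.14 (SE 0.23, adjusted p = 0.00444). Gjb1, connexin 32, the main connexin of hepatocytes, read 9.999 to 10.14 at 0 h and 8.96 to 9.61 at 20 h and fell by 0.73 (SE 0.15, adjusted p = 0.00417).

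Tubulins build microtubules. Tubb3 rose by 1.42 (SE 0.30, adjusted p = 0.00591), Tubb6 by 1.42 (adjusted p = 0.0144) and Tubb2a by 2.07 (SE 0.54, adjusted p = 0.0187), with 3.12 for Tubb2a in PHX2 and 1.02 in PHX3. Tubulin probe sets may share transcripts, and a second Tubb2a probe set gave -0.09 and a second Tubb3 probe set -0.05. Tubb2a read 10.58 in 20 h liver A and 11.70 to 11.91 in the other 3. Actg1, γ-actin, rose by 1.5 (adjusted p = 0.0153), and its groups overlapped through 20 h liver A. An adjusted p of 0.0755 was reached by Tubb2a without 0 h D, 0.056 by Tubb6 without 20 h C and 0.0756 by Actg1 without 20 h D. Between 6 and 11 members rose without any 1 liver except 20 h A.

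Most replication and mitosis genes did not pass the test at 20 h. Of 41 DNA replication genes, none rose and 2 fell, with a median of -0.04, and of 32 mitosis genes 1 rose (Wee1, a kinase that holds back mitosis) and none fell. Cdk1, the kinase that drives mitosis, read 6.35, 6.16, 5.78 and 6.65 at 0 h and 5.82, 6.39, 6.32 and 6.27 at 20 h, a difference of -0.03 (SE 0.24, adjusted p = 0.952). Pcna, the replication clamp, differed by 0.18 (SE 0.20, adjusted p = 0.654). The 2 falls were Mcm10 (-1.77, SE 0.39, adjusted p = 0.0078) and Tk1 (-0.74, adjusted p = 0.0192), and a dimmer Tk1 probe set gave 0.35. Wee1 was dim, with a mean of 4.12 at 0 h and 4.64 at 20 h. It rose by 0.52 (SE 0.14, adjusted p = 0.0212), and its groups overlapped. The calls of Tk1 and Wee1 were lost without 0 h D (adjusted p = 0.0608) and 20 h B (0.0993).

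None of 20 G1 cyclins, inhibitors and E2F-Rb genes was called. Cyclin D1 (Ccnd1), which drives the passage through G1, read 6.74, 7.24, 7.23 and 7.18 at 0 h and 7.06, 9.62, 7.51 and 7.03 at 20 h. A single high liver, B, lay over 2 log2 units above the others, and the difference of 0.71 (SE 0.54) did not pass the test (adjusted p = 0.483). Cdkn1a, the inhibitor p21, read 7.74 to 7.91 at 0 h and 8.20, 8.22, 9.32 and 9.64 at 20 h. Its brighter probe set gave 1.0 (SE 0.35, adjusted p = 0.079), and its other probe set rose by 2.06 (SE 0.42, adjusted p = 0.00442). None of 20 p53 targets was called, Cdkn1a included.

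Transcript levels at 20 h were then compared directly with those of the later livers. At 40 h, 1 Cre minus liver was of PHX2 and 3 of PHX3. Between 20 h and 40 h, 246 probe sets rose (2.66%) and 290 fell (3.14%); by gene, 194 rose (2.86%) and 222 fell (3.27%). Of the 41 replication genes 31 rose, and of the 32 mitosis genes 25 rose. Those counts were 29 to 31 and 23 to 26 with any 1 of the 8 livers left out. Cdk1 rose by 2.33 (SE 0.24, adjusted p = 3.48e-07), Pcna by 1.54 (adjusted p = 1.32e-05) and Rrm2, the ribonucleotide reductase subunit, by 2.72 (adjusted p = 3.48e-07). The largest rise was in Stmn1, a microtubule regulator (2.95, adjusted p = 8.65e-07), and Mcm5 and Cdc20 rose by 2.29 and 2.22. Over all probe sets the number called was 231 to 284 without 20 h B, 20 h D, 40 h A, 40 h B or 40 h C and 1020 without 40 h D.

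Several genes that had risen at 20 h fell between 20 h and 40 h. Cyp2b10 fell by 2.18 (SE 0.50, adjusted p = 0.0109), Aass by 0.91 (adjusted p = 0.00114), Eif6 by 1.20 (adjusted p = 0.0131) and Plin2 by 1.48 (adjusted p = 0.0317). Of the 63 ribosome biogenesis factors, 7 fell and none rose over this interval, and 4 to 10 fell with 1 liver left out. Leaving out 1 liver ended the calls of Eif6 (adjusted p = 0.0603 without 20 h B) and Plin2 (0.0908 without 20 h D). Srebf1 rose by 2.14 (adjusted p = 0.0243, and 0.0947 without 40 h A). The 20 h livers enter both comparisons, so a high or low 20 h value moves the 2 differences in opposite directions.

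Other genes did not pass the test between 20 h and 40 h. Mt2 differed by -0.46 (SE 0.44, adjusted p = 0.524), Lcn2 by -0.23 (SE 0.59) and Hmgcs1 by -0.27 (SE 0.60), and none of the 21 cholesterol genes was called. No probe set was called between 20 h and 30 h (0%) by limma, and 9 were called without 20 h liver A. At an unadjusted p below 0.05 there were 531, where 462.5 would pass by chance.

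**Figure D5:**
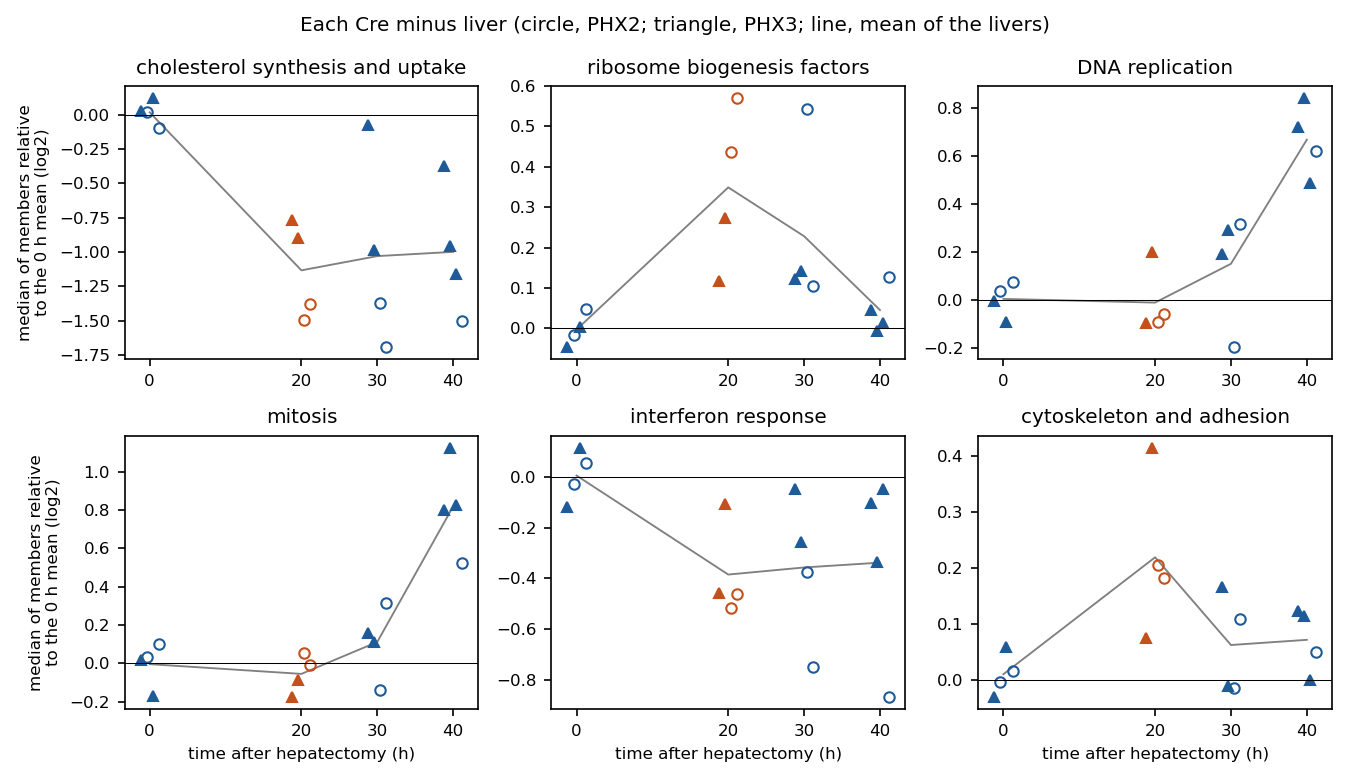
Median over list members relative to the 0 h mean (log2) in each Cre minus liver at 0, 20, 30 and 40 h after hepatectomy; circles are PHX2, triangles PHX3, orange the 20 h livers, and the line joins the means. Replication and mitosis lie near 0 at 20 h and above all earlier livers at 40 h, whereas cholesterol synthesis is already low and ribosome biogenesis already high at 20 h.

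Interferon-response genes include chemokines and the immunoproteasome. Of 35 tested, 7 fell and none rose, and 32 had a negative difference, with a median of -0.38. Cxcl9, a chemokine induced by interferon-γ, read 7.45, 6.77, 7.54 and 6.65 at 0 h and 5.04, 5.19, 5.23 and 5.30 at 20 h, and it fell by 1.91 (SE 0.48, adjusted p = 0.0158). The immunoproteasome genes Psmb8 and Psme1 fell by 0.99 and 0.51 (adjusted p = 0.0134 and 0.0119), and Ifit3 fell by 1.11 (adjusted p = 0.0308). The list median was -0.46, -0.11, -0.52 and -0.46 in 20 h livers A to D and -0.12 to 0.12 at 0 h. The calls of Cxcl9, Psmb8 and Ifit3 were lost without 0 h A (adjusted p = 0.0579), 0 h C (0.0533) and 0 h D (0.0978), and 2 to 4 members fell without any 1 liver except 20 h B.

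Of 15 Kupffer cell and macrophage markers, 13 had a negative difference, with a median of -0.22 (-0.32 in PHX2 and -0.24 in PHX3), and 2 fell (Mpeg1 by 0.83 and Mrc1 by 0.44, adjusted p = 0.0375 and 0.0412) and none rose. Clec4f, which defines Kupffer cells, had a mean of 8.88 at 0 h and 8.71 at 20 h. Of 14 endothelial markers, 3 fell, of which Kdr, the VEGF receptor, had the firmest call (-0.38, SE 0.08, adjusted p = 0.00674), and Eng and Flt4 fell by 0.40 and 0.34. Of 30 stellate cell, fibroblast and matrix genes, 1 rose and 1 fell. Without 20 h A, 4 of them rose, none rose without any other liver except 0 h C, and none fell without any liver except 0 h D and 20 h A. None of 9 T and NK cell, 8 B cell, 5 cholangiocyte, 10 erythroid and 4 platelet markers was called. The calls of Mpeg1 and Mrc1 were lost without 0 h C (adjusted p = 0.15) and 20 h D (0.153), and those of Eng and Flt4 without 0 h A (0.12) and 20 h B (0.138). The part of changed cell numbers in the falling interferon genes was not tested.

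Of 19 circadian clock genes, Nr1d1 fell and Wee1, already counted among the mitosis genes, rose. Dbp, a clock output gene, read 4.59 and 4.89 in the PHX3 livers of 0 h and 7.25 and 6.91 in the PHX2 livers of 0 h, and 4.79 to 5.25 in all 20 h livers. Its difference was -0.90 (SE 0.48, adjusted p = 0.286), with -1.99 in PHX2 and 0.19 in PHX3. Arntl ran the other way at 0 h, 6.83 and 6.62 in PHX3 against 5.39 and 5.59 in PHX2. The hour of day at which livers were taken is not in the labels, and its part in these differences was not tested. The E-box CACGTG was in 3 of 16 clock promoter windows (18.8%) against 6.86% of genes, and the D-box TTATGTAA in 1 of 16 (6.25%) against 0.977%.

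The change at 20 h was compared with that in Rps6-deleted livers by the interaction of genotype and time. No probe set was called (0%) by limma, and the smallest adjusted p was 0.281. At an unadjusted p below 0.05 there were 132, fewer than the 462.5 that would pass by chance. Mt2 rose by 4.93 in Cre plus livers (interaction 1.11, SE 0.62), Cebpd by 2.27 (interaction 0.24, SE 0.37) and Odc1 by 0.93 (interaction -0.36, SE 0.27). Idi1 fell by 2.38 in Cre plus livers (interaction 0.32, SE 0.86) and Hsd3b5 fell by 3.46 (interaction 0.39, SE 1.09). Thrsp had the widest gap of the genes named, -0.13 in Cre plus against -2.34 in Cre minus livers (interaction 2.21, SE 0.90). The median change of ribosome biogenesis factors was 0.36 with Rps6 deleted and 0.34 with it intact, and that of cholesterol genes -0.92 and -1.19. A missed threshold does not show that the genotypes respond alike.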

How the data were processed

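RNA from mouse liver was measured on 32 single-colour Affymetrix arrays, 1 per sample, and the 8 Cre minus arrays of 0 h and 20 h are compared here. The authors deposited 1 table of log2 intensities made by RMA, per the submitters' processing notes; its version, and any joint normalization of the arrays, were not given in the sources used here. That the scale is log2 was read from the range of the values. Of 12488 probe sets, the 66 controls were left out, and 9249 lay above the 30th percentile of their own array on at least 3 arrays. Gene names came from the platform annotation: 10833 probe sets had 1 gene, 396 several and 1193 were unnamed. A gene was taken by its probe set of the highest mean. limma 3.58.1 (R 4.3.3) was fitted to all 32 arrays with 8 groups and batch. The 2-sided p-values were adjusted by Benjamini-Hochberg over the 9249. Every adjusted p is from this fit, except those given with a liver left out or under another setting, which are from refits. The fit shares its spread over all groups. Differences of 20 h and 0 h within PHX2 and PHX3 used 2 livers against 2; at 40 h, 1 liver was of PHX2 and 3 of PHX3. The fitting was tested on simulated data.

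The members and the gene lists were chosen with earlier results of these data known. Genes named are the 15 called genes with the largest difference in each direction, up to 5 called members in each direction of each list, the 6 largest changes from 20 h to 40 h in each direction, central members not called, and a few set genes; Ly6g, Ngp, Fabp4, Lep, Clec4f, Fos, Jun and Arntl were chosen as known markers. Not every gene the rule allows is printed, and some called members outside it are. Among these are Rrs1, Utp18, Npm1, Eif4a1, Fgg, Proc, Otc, Slc25a1, Psme1, Krt18 and Gja1. The cholesterol genes Mvk, Mvd, Fdps, Fdft1, Lss and Nsdhl were likewise added to follow the pathway. The number of arrays limits the precision. Alternatives were the arrays fitted, the batch term, the filter, normalization, array weights, a replicate block and the omission of each liver. The letters A to D were checked as pairs: deviations of same-lettered 0 h and 20 h livers correlated at 0.0912, -0.0886, -0.422 and 0.413, so they were not used as pairs.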

Additional observations from a re-analysis of the deposited data

Results flagged for a closer look

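Over 213 genes and list medians in both groups of 4 Cre minus livers (426 groups), 29 had 1 liver whose gap to the nearest of the others was too wide a share of the range by Dixon's criterion. Chance flags about 1 in 20 groups. Of the 29, 17 were in 20 h livers, with A standing apart in 9, B in 6, D in 2 and C in 0. The other 12 were in 0 h livers, with C in 7, A in 3, D in 2 and B in 0.

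In 20 h liver A, the lowest of its group, Tubb2a read 10.58, Tubb3 9.48, Saa3 8.57 and Wee1 4.24. The same liver was highest for Tsc22d1 at 7.93, Cebpa at 10.93, Mcm10 at 6.86, Ldha at 12.90 and the median of fatty acid oxidation and PPARA targets at 0.66. In 20 h liver B, the lowest, Mt2 read 11.71 against 12.84 to 12.95 in the other 3, Eci2 8.83 and Ttr 9.74. Liver B was highest for Hspa8 at 10.38, for the DNA replication median at 0.20 and for the interferon median at -0.11. In 20 h liver D, the highest, Pabpc4 read 7.98 and Cyp2f2 10.67.

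At 0 h, liver C was highest for Eif1a at 8.22, Hspa8 at 9.28, Serpina3n at 11.10, Psmb8 at 9.05, Ttr at 11.74 and F10 at 10.66, and lowest for Abcc6 at 5.77. Liver A was lowest for Ccnd1 at 6.74 and highest for Eif5 at 8.23 and for the erythroid median at 0.12. Liver D was lowest for S100a10 at 9.93 and Gstp1 at 13.37.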

How the results depend on the processing

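At 20 h against 0 h, 308 higher and 374 lower became 786 and 683 with only the arrays compared, 1058 and 1037 with array weights, 73 and 81 at least 2-fold, 28 and 61 within PHX2 alone, and 150 and 93 within PHX3 alone. With 1 liver left out they ranged from 132 to 361 and from 194 to 407. Between 20 h and 40 h the 536 calls became 2266 with array weights, 93 at least 2-fold, 4 within PHX2 alone (1 liver of 40 h against 2) and 1486 within PHX3 alone (3 against 2), and 231 to 1020 with 1 liver left out. Between 20 h and 30 h the 0 calls became 225 with array weights, 1 with the replicate block and 0 to 9 with 1 liver left out. The interaction gave 1 call with array weights and 1 within PHX3 alone. Removing the batch difference raised the probe sets whose 20 h livers all lay below to 1193. The cause of these moves was not tested. The counts kept within 1.5 times without the batch term, without the filter, with the stricter filter, and after median centring or quantile normalization.

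The replicate block with the batch term gave 320 higher and 374 lower, and 9 of 168 gene results lost their call under it, but the letters do not pair the livers. Of the 168, 28 lost it without the batch term, 17 without the filter, 7 after centring, 3 after quantile normalization, 134 within PHX2 alone, 104 within PHX3 alone and 79 at a 2-fold minimum. Pcna turned to -0.0101 within PHX2 alone. Hspa5 passed with only the arrays compared (0.70, adjusted p = 0.0382). Dim probe sets, and groups of 4 livers from 2 batches, limit what could be detected.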

Other observations

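Genes of glucose use moved in both directions. Of 29 genes of gluconeogenesis, glycolysis and glycogen, 3 rose and 3 fell. Ldha, lactate dehydrogenase A, read 11.73, 11.84, 11.95 and 11.94 in 0 h livers A to D and 12.90, 12.45, 12.38 and 12.43 in 20 h livers A to D. The groups did not overlap, and Ldha rose by 0.68 (SE 0.14, adjusted p = 0.00395), a call held with any 1 of the 8 livers left out. The lactate carrier Slc16a1 and the aldolase Aldoa rose by 0.81 and 0.89 (adjusted p = 0.0181 and 0.0442), while the aldolase Aldoc and the kinase Pdk1 fell by 0.70 and 0.82 (adjusted p = 0.00395 and 0.0124). The gluconeogenic genes Pck1 (0.36, SE 0.40) and G6pc (-1.10, SE 0.63) did not pass the test, and their groups overlapped. Without 20 h C or 20 h D, 1 member rose, and without 0 h C, 1 fell.

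Some of the larger changes lay outside every pathway described. Thbd, thrombomodulin, an anticoagulant receptor of endothelium, read 3.12 to 3.56 at 0 h and 4.86 to 6.14 at 20 h and rose by 2.23 (SE 0.40, adjusted p = 0.00163), with low signals at 0 h. Thbd was chosen after its values were seen, and this is the dimmer of its probe sets, while the brighter rose by 0.85 (adjusted p = 0.00267). The dimmer probe set fell by 1.63 between 20 h and 40 h (adjusted p = 0.0174). St3gal5, the sialyltransferase that makes the ganglioside GM3, rose by 2.13 (SE 0.42, adjusted p = 0.00322). Wdr92 had a mean of 11.19 at 0 h and 12.92 at 20 h and rose by 1.73 (SE 0.19, adjusted p = 1.36e-05). Cela1, a pancreatic elastase gene, had a mean of 9.85 at 0 h and 8.52 at 20 h and fell by 1.32 (SE 0.28, adjusted p = 0.00629). Of 6 pancreatic acinar markers tested, only Cela1 was called, and the median was -0.09.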
